A study of Mus musculus with 8 samples.

Results

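The genes described here encode proteoglycans and glycoproteins of the extracellular matrix: the small leucine-rich proteoglycans lumican (Lum), decorin (Dcn), biglycan (Bgn) and fibromodulin (Fmod), the fibre-forming glycoproteins fibronectin (Fn1) and fibrillin-1 (Fbn1), and the matricellular proteins Sparc, periostin (Postn), tenascin-C (Tnc) and thrombospondin-1 (Thbs1). They were taken by symbol from the array's probe annotation, and each gene was read from its brightest probe set, by mean, among those annotated to that symbol alone. A probe set is a group of short probes for 1 transcript. Of the 10 genes listed, 9 had such a probe set, among 18193 genes measured, and Fbn1 was not analysed here. The RNA came from 3T3-L1 cells, a mouse fibroblast line, differentiated in culture into adipocytes and then made insulin resistant by 1 of 3 treatments: long exposure to insulin (chronic insulin, CI, 2 arrays), the inflammatory cytokine tumour necrosis factor (TNF, 3 arrays) or the synthetic glucocorticoid dexamethasone (Dex, 3 arrays). The antioxidant MnTBAP was present for the last 6 hours in all 8, so no group was untreated and each value below is a difference between models. Whether the arrays of a model stand for different cultures is not given in the sources used here, and the p-values therefore reflect array-to-array spread that may be technical. The comparisons TNF against CI and Dex against CI share the 2 CI arrays.

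The extracellular matrix is the mesh of secreted protein and sugar chains in which adipocytes sit. Small leucine-rich proteoglycans bind collagen and control how fibrils assemble and space, and decorin and biglycan also bind growth factors such as TGF-beta. Fibronectin is laid down early as fibrils that cells grip through integrins, and fibrillin forms microfibrils that carry elastin and store latent TGF-beta. Matricellular proteins build little structure themselves and instead alter adhesion and matrix turnover. Mature adipocytes and their fibroblast precursors both make matrix, and the balance of its parts is remodelled when adipose tissue expands or is inflamed.

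The 3 models differed most in lumican, decorin, fibronectin and tenascin-C. Lum was 7.18-fold lower and Dcn 2.68-fold lower in Dex than in CI. In TNF, Fn1 was 2.46-fold and Tnc 2.13-fold higher than in CI, while Lum was 1.71-fold lower. A gene was called where limma, a linear model fitted to all genes, gave a Benjamini-Hochberg adjusted p under 0.05 and a log2 difference over 0.5 in size.

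For TNF against CI, 3 of the 9 genes were higher (Fn1, Tnc and Bgn), 2 lower (Lum and Postn) and 4 not called. Over all genes 8.22% were called, 3.00% higher and 5.23% lower in TNF. For Dex against CI, 6 were lower (Lum, Dcn, Thbs1, Sparc, Postn and Tnc) and 3 not called, where 9.00% of all genes were called, 3.33% higher and 5.67% lower. By limma none of the 9 was called higher in Dex. At any size of difference all 9 had a limma adjusted p under 0.05, as had 3925 of all 18193 genes. Bgn was the 1 gene whose mean lay above CI. For TNF against Dex, 5 were higher in TNF (Lum, Dcn, Tnc, Fn1 and Thbs1) and 4 not called, where 7.30% of all genes were called, 4.14% higher and 3.16% lower in TNF. None was called lower in TNF than in Dex. At any size of difference 7 had a limma adjusted p under 0.05, all of them with the TNF mean above. Of all genes 3800 had such an adjusted p. The median difference of the 9 genes was -0.16, -0.65 and 0.92 on the log2 scale in the 3 comparisons, beside 0.03, 0.02 and 0.01 over all genes.

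**Figure D1:**
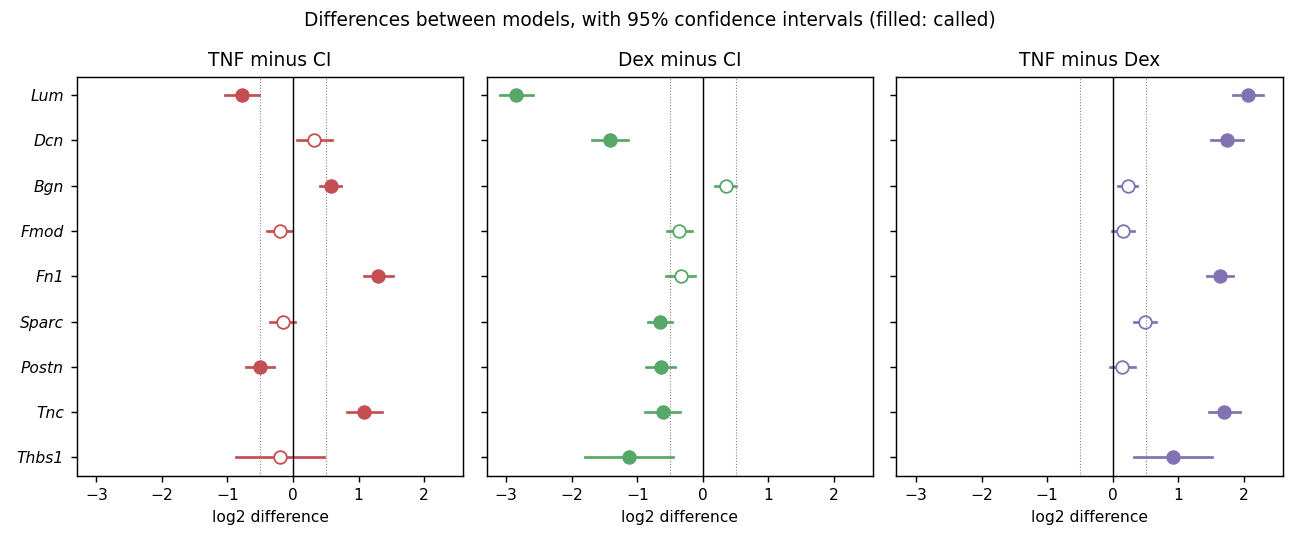
Log2 difference of each gene between 2 models (x axis), with the model's 95% confidence interval; filled points were called and dotted lines mark a difference of 0.5. Lum lies at -2.84 in Dex against CI, Dcn follows at -1.42, and in TNF against Dex no point lies below 0.

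Promoter sequence was at hand for 6 of the 10 genes, as the 250 bases before the RefSeq transcription start in mouse build GRCm38.p6. The windows of 4 genes are shown: Tnc and Bgn, which were higher in TNF than in CI, and Sparc and Postn, which with Tnc were lower in Dex. Each is written 5′ to 3′ on the gene's own strand, ending at the base before the start, and capitals mark matches to the motifs searched.
Tnc, chr4:64047016-64047265, minus strand: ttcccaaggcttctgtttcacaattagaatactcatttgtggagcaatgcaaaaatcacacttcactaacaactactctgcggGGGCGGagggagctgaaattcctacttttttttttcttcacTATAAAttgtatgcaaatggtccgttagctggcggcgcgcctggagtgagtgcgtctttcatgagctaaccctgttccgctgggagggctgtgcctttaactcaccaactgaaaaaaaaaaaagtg
Bgn, chrX:73483351-73483600, plus strand: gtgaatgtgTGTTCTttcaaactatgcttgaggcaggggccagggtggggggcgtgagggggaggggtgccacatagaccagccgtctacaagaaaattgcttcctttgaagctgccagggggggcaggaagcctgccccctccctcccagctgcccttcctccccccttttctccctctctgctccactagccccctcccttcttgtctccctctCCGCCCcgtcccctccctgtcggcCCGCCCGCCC
Sparc, chr11:55420081-55420330, minus strand: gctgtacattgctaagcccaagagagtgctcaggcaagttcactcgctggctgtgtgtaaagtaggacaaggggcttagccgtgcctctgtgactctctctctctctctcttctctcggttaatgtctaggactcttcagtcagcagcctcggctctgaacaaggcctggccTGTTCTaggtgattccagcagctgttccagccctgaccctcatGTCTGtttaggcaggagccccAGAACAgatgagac
Postn, chr3:54359017-54359266, plus strand: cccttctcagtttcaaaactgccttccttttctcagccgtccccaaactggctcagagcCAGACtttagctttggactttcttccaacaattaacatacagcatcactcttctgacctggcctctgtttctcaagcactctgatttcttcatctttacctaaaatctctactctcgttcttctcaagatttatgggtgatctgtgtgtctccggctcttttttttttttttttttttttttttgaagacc

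Both strands were searched for 6 short motifs: the NF-kB consensus, the AP-1 site TGANTCA, the glucocorticoid receptor half-site AGAACA, the SMAD-binding CAGAC, the Sp1 box GGGCGG and the TATA box TATAAA. Tnc held 1 Sp1 box and 1 TATA box, and Bgn held 3 Sp1 boxes, of which a pair overlap, and 1 AGAACA. Sparc held 2 copies of AGAACA and 1 CAGAC, Postn and Fmod held CAGAC only (1 and 2 copies), and Fbn1 held 1 Sp1 box. None of the 6 windows held the NF-kB or AP-1 letters. Among 32851 windows of this length, 3.90% held the NF-kB consensus, 6.75% the AP-1 site, 16.1% AGAACA, 42.2% CAGAC, 32.7% the Sp1 box and 12.4% the TATA box. Such matches describe the sequence and do not show that a factor binds.

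The arrays were closely alike, with Pearson's r over probe sets of 0.996 to 0.998 within a model and 0.986 to 0.991 between models, and no array stood apart. One label field called the cells preadipocytes. The adipocyte genes Adipoq (14.31 to 14.39) and Fabp4 (14.37 to 14.45) lay near the top of the scale in every array. Among preadipocyte and fibroblast markers Vim (13.69 to 13.85), S100a6 (12.69 to 13.38) and Dlk1 (12.00 to 13.10) were bright too. Others, such as Cd34 (5.22 to 5.93) and Gata3 (4.81 to 5.66), were dim. The share of preadipocytes among the cells was not tested. Of 15 measured preadipocyte and fibroblast markers, 6 were higher and 1 lower in TNF than in CI, 1 was higher and 4 lower in Dex than in CI, and 7 were higher in TNF than in Dex. Their summed intensity was 41352 to 41490 in CI, 52408 to 56992 in TNF and 39530 to 41314 in Dex. Of 10 measured adipocyte markers, 5 were lower in TNF than in CI, and 1 was higher and 2 lower in Dex than in CI. The adipocyte sum was 126246 to 126511 in CI, 101786 to 103763 in TNF and 124478 to 132494 in Dex. The part of these markers in the results was not tested, and in bulk RNA fewer cells of a type and less RNA per cell cannot be told apart. Of 16 macrophage and leukocyte markers, the defining Ptprc lay at 4.46 to 4.77 in every array, against a median gene of 7.89 to 7.93. Lyz2 (10.05 to 11.06), Cd14 (8.03 to 9.78), Csf1r (8.44 to 8.92), Cd3e (8.14 to 8.48) and Fcgr1 (7.91 to 8.10) lay above the median gene. The rest of the list lay below it. Of that list Cd14 and Lyz2 were called higher in TNF than in CI and Cd14 higher in Dex than in CI. Its summed intensity was 3317 to 3345 in CI, 4513 to 4810 in TNF and 3356 to 3364 in Dex. Of 8 endothelial and mural markers, Myh11 was lower in both TNF and Dex than in CI, and the sum ran from 1159 to 1307 over all arrays. The 3′ minus 5′ difference of the beta-actin probe sets, a measure of RNA integrity, was 0.54 to 0.66 in CI, 0.71 to 0.83 in TNF and 0.49 to 0.75 in Dex.

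Lumican, a keratan sulphate proteoglycan that sets the width and spacing of collagen fibrils, separated all 3 models. On the log2 intensity scale Lum lay at 10.55 and 10.21 in the CI arrays, at 9.46, 9.70 and 9.64 in TNF, and at 7.68, 7.42 and 7.49 in Dex. No 2 models overlapped, and the order was CI above TNF above Dex. From CI to Dex Lum fell by 2.84 ± 0.12 (SE), or 7.18-fold (limma adjusted p = 5.28e-08). From CI to TNF it fell by 0.78 ± 0.12, or 1.71-fold (adjusted p = 0.000783), and TNF lay above Dex by 2.07 ± 0.10 (4.19-fold, adjusted p = 1.49e-07). The Dex levels were under the median gene of the array, and without a background measurement the size of a difference is uncertain at such levels. Lum had 1 probe set, so no second reading was possible.

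Decorin carries 1 chondroitin or dermatan sulphate chain, decorates collagen fibrils and binds TGF-beta. Dcn lay at 12.44 and 12.39 in CI, at 13.04, 12.59 and 12.61 in TNF, and at 11.10, 10.96 and 10.93 in Dex. The Dex arrays were lowest and clear of the rest, and TNF replicate 1 was the highest array. From CI to Dex Dcn fell by 1.42 ± 0.12, or 2.68-fold (limma adjusted p = 1.10e-05), and it was 1.75 ± 0.11 higher in TNF than in Dex (3.36-fold, adjusted p = 1.04e-06). TNF and CI did not overlap, but their difference of 0.33 (95% confidence interval 0.05 to 0.60) was not called (adjusted p = 0.0829), and it was 0.18 without TNF replicate 1. Lum and Dcn thus had in common a low level in Dex and stood apart in TNF, where Lum was called lower than in CI and Dcn was not called.

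Biglycan, the closest relative of decorin, carries a pair of chains and can act as a danger signal through Toll-like receptors when it is freed from the matrix. Bgn lay at 13.52 and 13.36 in CI, at 14.03, 13.99 and 14.01 in TNF, and at 13.83, 13.78 and 13.76 in Dex. The 3 models did not overlap, with TNF highest and CI lowest, the reverse of the CI and Dex order of Lum and Dcn. Bgn was 1.49-fold higher in TNF than in CI (0.57 ± 0.08, limma adjusted p = 0.000343). Leaving out CI replicate 2 brought the difference to 0.49 (adjusted p = 0.00768), short of a call. Dex minus CI was 0.35 (95% confidence interval 0.18 to 0.51, adjusted p = 0.00633) and TNF minus Dex 0.22 (0.08 to 0.37, adjusted p = 0.0349), both under the minimum difference of 0.5. All these levels were close to the brightest probe set of an array (14.45 to 14.57), where differences can be compressed.

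Fibromodulin, a keratan sulphate proteoglycan that guides cross-linking of collagen, had small differences. Fmod lay at 7.77 and 7.70 in CI, at 7.46, 7.63 and 7.50 in TNF, and at 7.38, 7.28 and 7.47 in Dex. CI lay above both other models, which overlapped each other. None of its differences was called. TNF minus CI was -0.20 (95% confidence interval -0.39 to -0.02, limma adjusted p = 0.111) and Dex minus CI -0.36 (-0.55 to -0.17, adjusted p = 0.0103). TNF minus Dex was 0.16 (-0.01 to 0.32, adjusted p = 0.185). All Fmod values were below the median gene, so the sizes of these differences are uncertain.

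Several of these genes are neighbours in the genome. In the RefSeq order of protein-coding genes Dcn, Lum, Kera (keratocan) and Epyc (epiphycan) follow each other on chromosome 10, and Prelp lies next to Fmod on chromosome 1. Kera lay at 4.84 to 5.14 and Epyc at 3.90 to 4.19 over all 8 arrays, far below the median gene. At such levels a fall could not have been seen, so they allow no comparison with Lum and Dcn. Prelp, a collagen-binding member of the family, lay at 11.61 to 12.00 and was not called in any comparison. On chromosome 13 Ecm2, Aspn, Omd and Ogn form another run. There asporin (Aspn) was lower than in CI in TNF (-0.59 ± 0.17) and in Dex (-0.78 ± 0.17), and osteoglycin (Ogn) was lower in TNF (-0.81 ± 0.10). Ecm2 (TNF minus CI 0.21, Dex minus CI 0.26) and Omd (-0.05 and 0.13) were not called in any comparison. They lay at 5.56 to 5.90 and 5.62 to 5.94 over the arrays, far below the median gene, where sizes are uncertain. The TNF call of Aspn was lost without either CI array or without TNF replicate 1 or 3 (adjusted p = 0.0553 to 0.139), and its Dex call without CI replicate 1 (adjusted p = 0.0612).

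**Figure D2:**
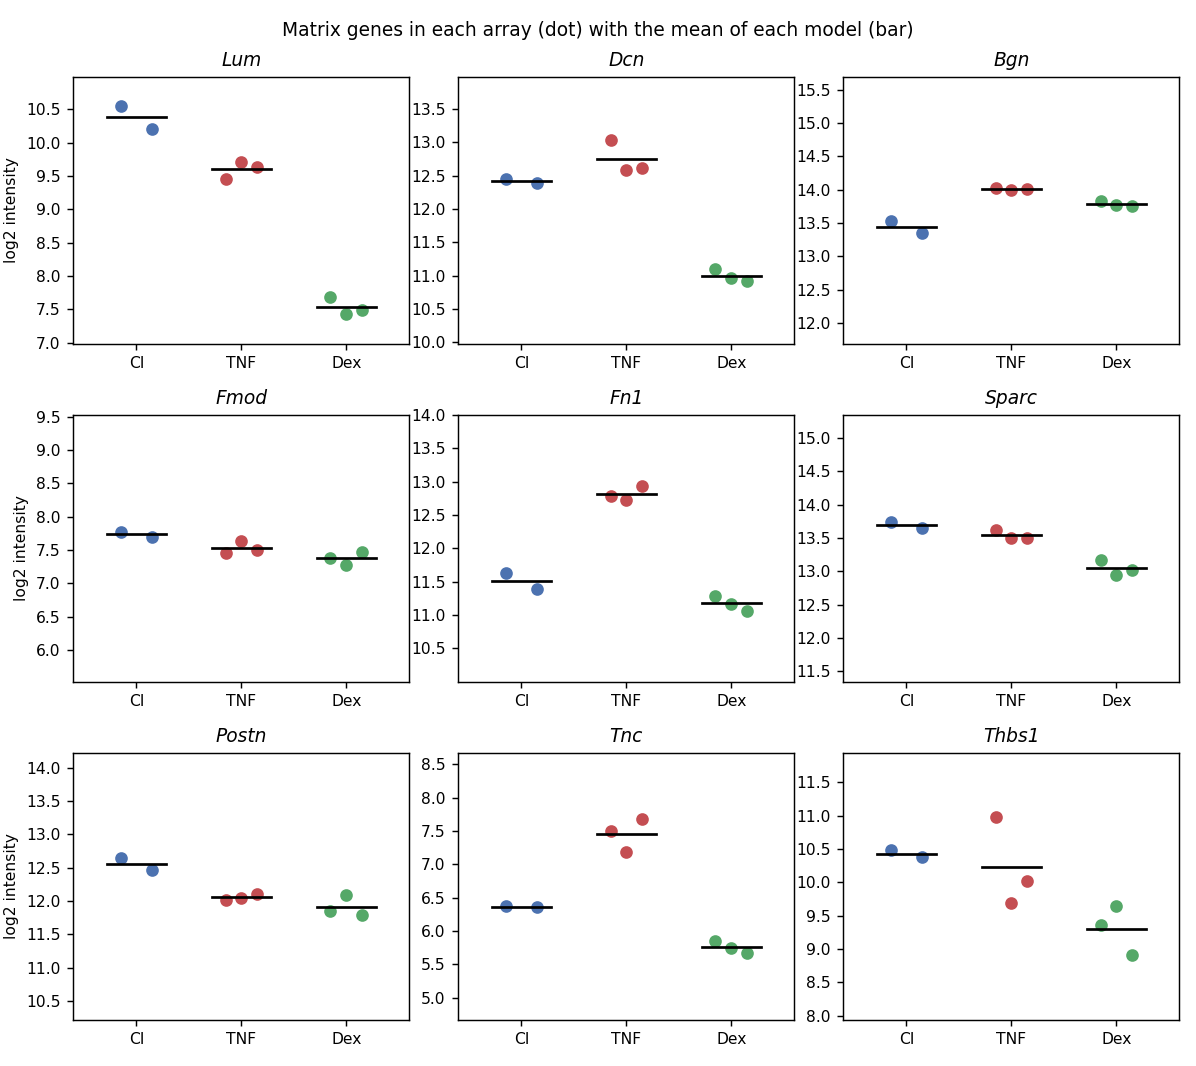
Log2 intensity (y axis, the same span of units in each panel) of the 9 genes in each array, with dots for arrays and a bar for the mean of CI, TNF and Dex. Lum and Dcn are lowest in Dex, Fn1 and Tnc are highest in TNF, and Thbs1 shows the widest spread within a model.

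Fibronectin, the adhesive glycoprotein that integrins pull into fibrils, had the largest difference between TNF and CI of the 9 genes. Fn1 lay at 11.64 and 11.40 in CI, at 12.78, 12.73 and 12.94 in TNF, and at 11.29, 11.17 and 11.07 in Dex. The TNF arrays stood more than 1 unit above all others, and the Dex arrays lay below CI without overlap. Beside its call in TNF against CI (limma adjusted p = 9.71e-06), Fn1 was 3.11-fold higher in TNF than in Dex (1.64 ± 0.09, adjusted p = 2.94e-07). Dex minus CI was -0.34 (95% confidence interval -0.56 to -0.12, adjusted p = 0.0316), under the minimum difference, and -0.22 without CI replicate 1 (adjusted p = 0.260).

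Tenascin-C is a large hexameric glycoprotein that is scarce in resting adult tissue and made at sites of injury and inflammation. Tnc lay at 6.38 and 6.35 in CI, at 7.49, 7.19 and 7.67 in TNF, and at 5.86, 5.74 and 5.66 in Dex. The models did not overlap, in the order TNF above CI above Dex. Tnc was 1.09 ± 0.12 higher in TNF than in CI (2.13-fold, limma adjusted p = 0.000113). From CI to Dex it fell by 0.61 ± 0.12, or 1.53-fold (adjusted p = 0.00378), and TNF lay 1.70 ± 0.11 above Dex (3.25-fold, adjusted p = 1.10e-06). All 8 values were below the median gene, so the sizes are uncertain.

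Thrombospondin-1 binds CD47 and CD36 on cells and can activate latent TGF-beta. Thbs1 lay at 10.48 and 10.38 in CI, at 10.97, 9.68 and 10.02 in TNF, and at 9.36, 9.65 and 8.90 in Dex. The TNF arrays lay on both sides of CI, and the lowest of them (9.68) lay just above the highest Dex array (9.65). Thbs1 was 2.18-fold lower in Dex than in CI (-1.13 ± 0.30, limma adjusted p = 0.0209) and 1.90-fold higher in TNF than in Dex (0.92 ± 0.27, adjusted p = 0.0329). The first call was lost without CI replicate 1, CI replicate 2 or Dex replicate 3 (adjusted p = 0.0622 to 0.118), and the second without TNF replicate 3, Dex replicate 1 or Dex replicate 3 (adjusted p = 0.0555 to 0.115). Without TNF replicate 1, the highest array, TNF minus Dex was 0.55 (adjusted p = 0.0478). Between TNF and CI the difference was -0.20, with a 95% confidence interval from -0.87 to 0.47, and it was -0.58 without TNF replicate 1 and 0.068 without TNF replicate 2.

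Sparc (osteonectin), a collagen-binding glycoprotein, and periostin, which binds collagen and fibronectin and is known from fibrosis, were both lower in Dex than in CI. Sparc lay at 13.74 and 13.65 in CI, at 13.62, 13.50 and 13.50 in TNF, and at 13.17, 12.95 and 13.02 in Dex. Dex was clear of the other models. From CI to Dex Sparc fell by 0.65 ± 0.09, or 1.57-fold (limma adjusted p = 0.000225), while TNF minus CI was -0.16 (95% confidence interval -0.35 to 0.03) and not called. TNF lay 0.49 above Dex (0.32 to 0.66, adjusted p = 0.000772), just under the minimum difference, and was called without TNF replicate 2, TNF replicate 3 or Dex replicate 1 (0.51 to 0.55). The Sparc probe set next in brightness gave 0.12 in TNF against Dex (95% confidence interval -0.16 to 0.40).

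Postn lay at 12.64 and 12.46 in CI, at 12.01, 12.04 and 12.11 in TNF, and at 11.84, 12.09 and 11.79 in Dex. Both CI arrays lay above the other 6, and TNF and Dex overlapped. Postn was 1.56-fold lower in Dex than in CI (-0.65 ± 0.10, limma adjusted p = 0.000677) and 1.42-fold lower in TNF (-0.50 ± 0.10, adjusted p = 0.00407). The TNF value sat at the minimum difference, and the call was lost when CI replicate 1 (-0.41, adjusted p = 0.0510), TNF replicate 1 (-0.48) or TNF replicate 2 (-0.49) was left out. TNF minus Dex was 0.14 (95% confidence interval -0.05 to 0.34).

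For 7 of the 9 genes the array carried further probe sets, which gave a second reading. The other Fn1 probe set, with means of 6.12 for CI, 7.27 for TNF and 6.29 for Dex, was called higher in TNF than in CI (1.14) and than in Dex (0.97), in the direction of the first. For Dex minus CI it went the other way, at 0.17 (95% confidence interval -0.08 to 0.42) against -0.34, and neither was called. The other 2 Bgn probe sets gave 0.42 and 0.47 for TNF against CI, with adjusted p = 0.00228 and 0.0023, both short of 0.5. The second Thbs1 probe set had the direction of the first (-0.96 in Dex against CI) but was not called. The second probe sets of Dcn and Tnc were dimmer and moved little: for Dex minus CI that of Dcn gave 0.04 (95% confidence interval -0.18 to 0.26), where the brighter one gave -1.42. For TNF minus CI that of Tnc gave 0.06 at a level near 3.5. The Sparc probe set next in brightness gave -0.32 in Dex against CI and was not called, and with the median over its probe sets Sparc was not called there (-0.42), nor was Tnc (-0.27). Of the 6 Fmod probe sets 1, the second dimmest, was called lower than in CI in both TNF (-0.67) and Dex (-0.87). Its means of 5.29 in CI, 4.63 in TNF and 4.42 in Dex lay far below the median gene, where sizes are uncertain.

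**Figure D3:**
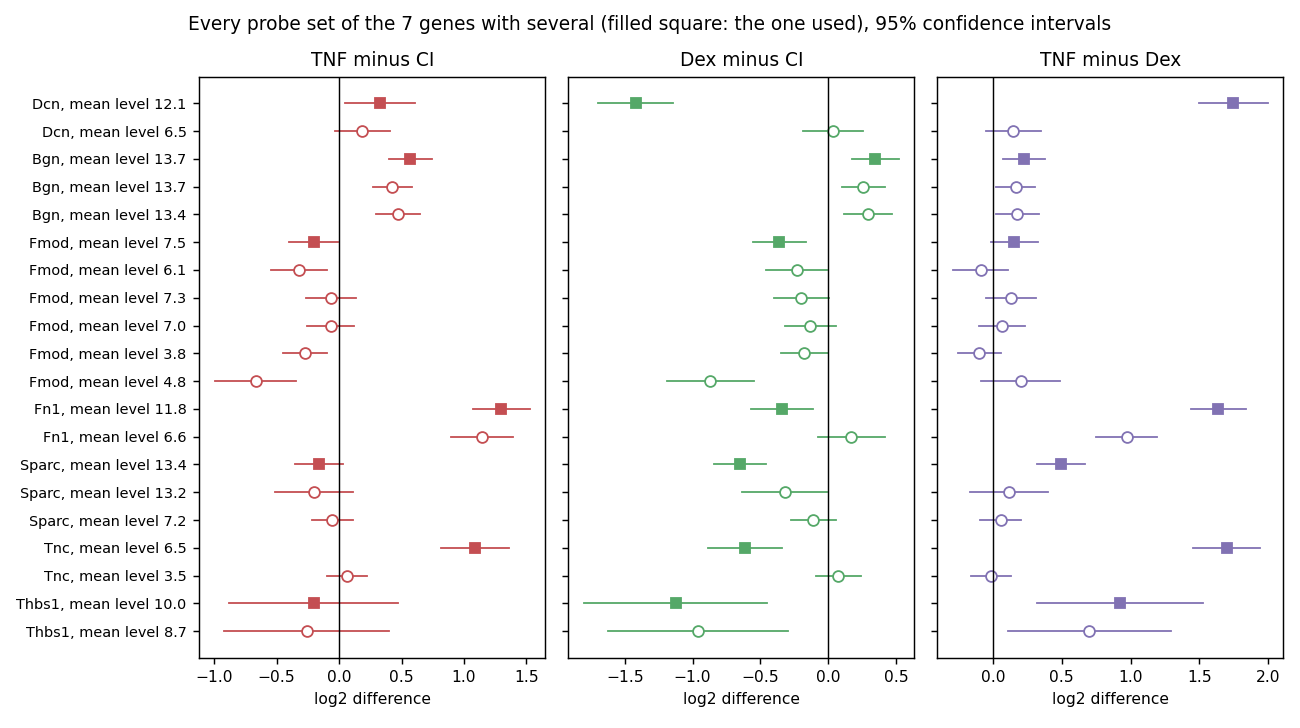
Log2 difference and 95% confidence interval (x axis) of every probe set of the 7 genes with more than 1; a filled square marks the probe set used and the row label gives its mean log2 level. The Fn1 and Bgn probe sets lie on the same side of 0 in TNF against CI, while the dim Dcn and Tnc probe sets lie near 0.

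Beyond these 9, 8 lists of related matrix genes were counted, with 159 of 168 genes measured. Of these, 30 were higher and 10 lower in TNF than in CI (25.2% called, median 0.13), 11 higher and 24 lower in Dex than in CI (22%, median 0.01), and 26 higher and 3 lower in TNF than in Dex (18.2%, median 0.12). The shares over all genes were 8.22%, 9.00% and 7.30%, as given above. Several list genes named below had levels under the median gene in some arrays, among them Has2, Tgfbi, Lamb3, Tgfb2, Prg4, Ncan, Nyx and Stab2. As for Lum, the sizes of their differences are uncertain.

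The microfibril and elastic fibre genes, the partners of fibrillin, were higher in TNF in 8 of 22 cases and lower in none, with a median of 0.24. Ltbp2, a latent TGF-beta binding protein of microfibrils, lay at 9.53 and 9.49 in CI, at 11.14, 10.92 and 11.13 in TNF, and at 9.60, 9.53 and 9.41 in Dex. The TNF arrays were alone at the top, 1.55 ± 0.09 above CI (2.93-fold, limma adjusted p = 1.27e-06) and 1.54 ± 0.08 above Dex. The cross-linking enzyme Lox (0.78 ± 0.09), its relative Loxl4 (0.77 ± 0.07) and the elastic fibre protein Fbln5 (0.77 ± 0.08) were also higher than in CI. Against Dex, 6 were higher in TNF, among them Fbln1 (0.89 ± 0.07), Fbln5 (0.75 ± 0.07) and Loxl3 (0.73 ± 0.10). Between Dex and CI limma called 0 of the 22, with a median of -0.08. At an unadjusted p under 0.05 were 12 of them, beside 92 of the 159 genes of all 8 lists. That p was not counted over all genes, of which 3925 had an adjusted p under 0.05 at any size of difference. With the median over its probe sets Fbln5 was not called in TNF against CI (0.39).

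Of 23 other matricellular genes, 6 were higher in TNF than in CI and none lower (median 0.26). The calcification inhibitor Mgp was higher by 1.07 ± 0.08, Ccn5 by 1.03 ± 0.13, Ccn4 by 0.94 ± 0.17 and Thbs2, a relative of Thbs1, by 0.82 ± 0.09. In Dex against CI 2 were higher and 5 lower. Tgfbi, an integrin-binding protein named for its induction by TGF-beta, lay at 8.90 and 8.95 in CI, at 8.89, 9.36 and 9.14 in TNF, and at 7.003, 7.14 and 7.69 in Dex. Dex was the low group and TNF overlapped CI, and from CI to Dex Tgfbi fell by 1.65 ± 0.18, or 3.14-fold (limma adjusted p = 5.83e-05). Ccn1, an immediate-early matricellular gene, went the other way, at 8.03 and 7.35 in the CI arrays, at 8.57, 7.93 and 8.09 in TNF, and at 9.35, 9.98 and 9.68 in Dex. All 3 Dex arrays lay above the other 5, with Dex minus CI at 1.98 ± 0.23 (3.94-fold, adjusted p = 9.61e-05) and TNF minus Dex at -1.47 ± 0.21. The Sparc relative Sparcl1 was higher in Dex than in CI (0.73 ± 0.09), whereas Sparc was lower, and Matn2, a filament-forming adaptor, was lower (-0.68 ± 0.11). Against Dex, 7 were higher and 1 lower in TNF, with Tgfbi 1.85 ± 0.16, Mgp 1.58 ± 0.07 and Ccn4 0.67 ± 0.15 higher.

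**Figure D4:**
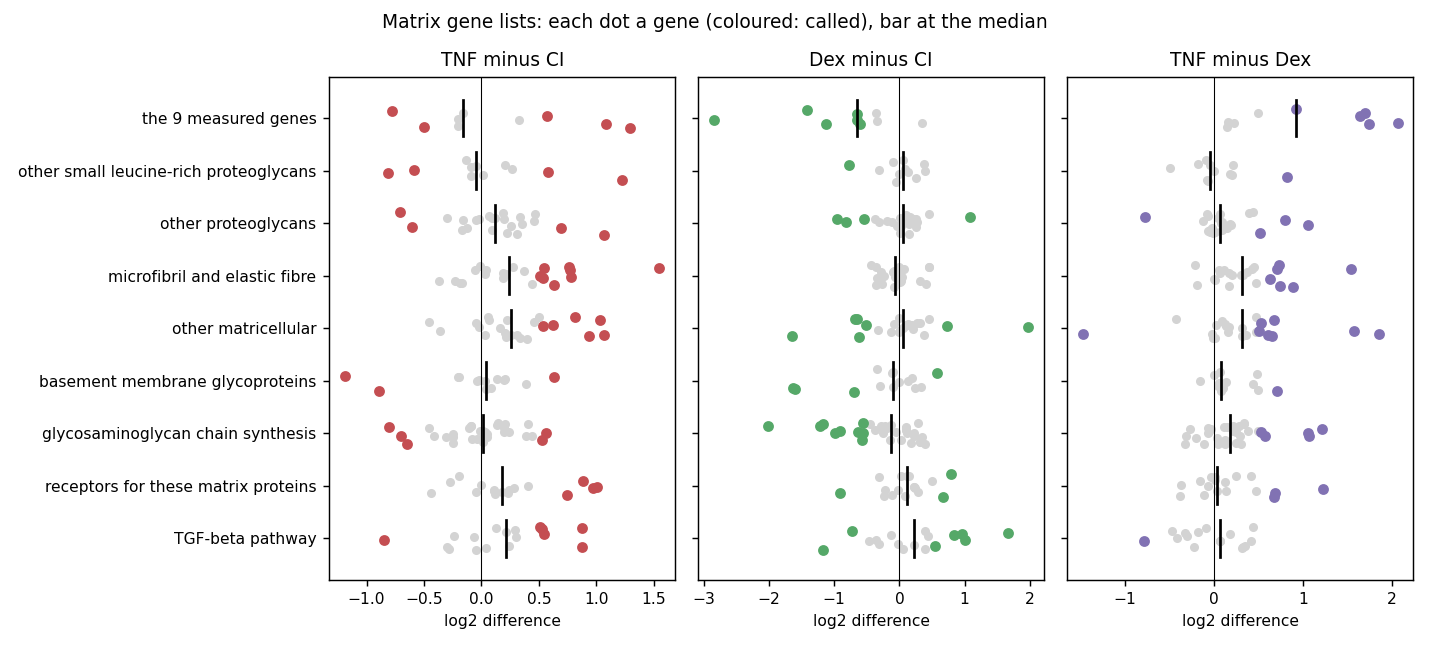
Log2 difference (x axis) of each gene in the 9 measured genes and in the 8 lists of related genes (rows), with coloured dots for called genes and a bar at each median. In TNF against CI the coloured dots of the microfibril and other matricellular rows all lie above 0, and in Dex against CI those of glycosaminoglycan chain synthesis all lie below 0.

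The enzymes that build glycosaminoglycan chains, which decorin and biglycan carry, were lower in Dex than in CI in 9 of 32 cases and higher in none, with a median of -0.13. Has2, which spins out hyaluronan, lay at 9.12 and 8.85 in CI, at 8.52, 7.97 and 8.04 in TNF, and at 7.05, 6.74 and 7.10 in Dex. The models did not overlap, in the order CI above TNF above Dex, the order of Lum. Has2 was 4.06-fold lower in Dex than in CI (-2.02 ± 0.16, limma adjusted p = 5.82e-06). In TNF it was 1.75-fold lower than in CI (-0.81 ± 0.16), a call lost without CI replicate 1 (adjusted p = 0.0548). Also lower in Dex were the heparan sulphate polymerase Ext1 (-1.23 ± 0.13), Csgalnact1, which starts chondroitin sulphate chains (-1.17 ± 0.12), and Papss2, which makes the sulphate donor (-0.99 ± 0.09). In TNF against CI 2 were higher and 3 lower: Ext1 (-0.70 ± 0.13) and Papss2 (-0.65 ± 0.09) were lower, and Ugdh, which makes a sugar precursor, was higher (0.56 ± 0.08). Against Dex, 5 were higher in TNF and none lower, among them Has2 (1.21 ± 0.14), Csgalnact1 (1.07 ± 0.11) and the epimerase Dse, which turns chondroitin into dermatan sulphate (1.06 ± 0.08), with the chondroitin polymerase Chsy1 at 0.57 ± 0.09.

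Of 23 other proteoglycans, 2 were higher and 2 lower in TNF than in CI, 1 higher and 3 lower in Dex than in CI, and 3 higher and 1 lower in TNF than in Dex. Versican (Vcan), a large hyaluronan-binding proteoglycan, lay at 8.80 and 8.61 in CI, at 9.67, 9.70 and 9.94 in TNF, and at 9.78, 9.70 and 9.86 in Dex. It was higher than in CI in both TNF (1.07 ± 0.10) and Dex (1.08 ± 0.10), but its median over probe sets was not called in either (0.11 and 0.15). Agrin (Agrn), a heparan sulphate proteoglycan, was higher in TNF than in CI (0.69 ± 0.08), and the lubricating proteoglycan Prg4 was lower (-0.71 ± 0.10). The cell-surface proteoglycans Sdc2 and Gpc4 were lower in Dex than in CI (-0.95 ± 0.10 and -0.81 ± 0.08). Neurocan (Ncan), a relative of versican known from brain, was lower than in CI in TNF (-0.61 ± 0.09) and in Dex (-0.54 ± 0.09), and was not called in either with the median over its probe sets (-0.49 and -0.36). TNF minus Dex was 0.80 ± 0.09 for Sdc2 and -0.77 ± 0.09 for Prg4.

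Of 11 measured genes listed beside the small leucine-rich proteoglycans, 2 were higher and 2 lower in TNF than in CI, 1 was lower in Dex and 1 was higher in TNF than in Dex. Beside Aspn and Ogn these were nyctalopin (Nyx), 0.58 ± 0.09 higher in TNF than in CI, and Ecm1, a matrix glycoprotein on the list that is not a leucine-rich proteoglycan, 1.22 ± 0.08 higher in TNF than in CI and 0.82 ± 0.07 higher than in Dex.

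Of 14 basement membrane glycoproteins, 1 was higher and 2 lower in TNF than in CI, and 1 higher and 3 lower in Dex. The laminin chain Lamb3 was lower in TNF (-1.19 ± 0.10) and in Dex (-1.63 ± 0.10), and so was Nid2, a nidogen that links laminin to collagen (-0.89 ± 0.10 and -1.60 ± 0.10). The laminin chain Lama4 was lower in Dex (-0.70 ± 0.09). The laminin chain Lamb2 was higher in both, by 0.63 ± 0.12 and 0.58 ± 0.12, and neither call was kept without CI replicate 1 (0.43 and 0.38, adjusted p = 0.0501 and 0.0815). Against Dex, Nid2 was the 1 gene called, 0.71 ± 0.09 higher in TNF.

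Among 17 receptors and clearance receptors for these proteins, 4 were higher in TNF than in CI and none lower. They were the endocytic receptor Lrp1 (0.98 ± 0.09), the collagen receptors Ddr2 (0.89 ± 0.11) and Ddr1 (0.74 ± 0.12), and the integrin chain Itgav (1.01 ± 0.12), which binds fibronectin, periostin and other ligands in several pairings. Itgav depended on the probe set: with the median over its probe sets TNF minus CI was 0.06 and TNF minus Dex -0.13, where the probe set used gave 1.23 ± 0.10. In Dex against CI 2 were higher and 1 lower. The thrombospondin receptor Cd47 was lower (-0.91 ± 0.07), and the hyaluronan scavenger receptor Stab2 and the fibronectin receptor chain Itga5 were higher (0.78 ± 0.08 and 0.66 ± 0.11). With the median over probe sets Cd47 (-0.12), Itga5 (0.26) and, in TNF, Ddr1 (0.26) were not called.

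The TGF-beta pathway, which drives transcription of many matrix genes, had 5 higher and 1 lower of 17 in TNF against CI, 5 higher and 2 lower in Dex against CI, and 1 lower in TNF than in Dex. The ligand Tgfb1 was higher in TNF by 0.87 ± 0.09 (0.49, not called, with the median over its probe sets), while the ligand Tgfb2 was lower in TNF (-0.85 ± 0.09) and in Dex (-1.17 ± 0.09). The inhibitory Smad6 was higher in TNF by 0.88 ± 0.10 and in Dex by 1.66 ± 0.10 (3.17-fold, limma adjusted p = 6.16e-07), with TNF minus Dex at -0.79 ± 0.09. A second inhibitor, Smad7, was higher by 0.55 ± 0.15 in TNF, not called without CI replicate 1 or TNF replicate 1, and by 0.96 ± 0.15 in Dex, where the SMAD repressor Skil was higher by 1.0 ± 0.13. Both Tgfb1 and Skil lay above CI in TNF and in Dex. Mean Tgfb1 was 9.05 in CI and 9.60 in Dex, and mean Skil was 9.98 in CI and 10.50 in TNF.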

How the data were processed

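RNA of 8 3T3-L1 adipocyte samples had been hybridised to Affymetrix Mouse Genome arrays, and the authors background-corrected and normalised the arrays by RMA in affyPLM. The deposited table gives 1 linear intensity per probe set and array, and whether anything beyond undoing the RMA log was done to them is not given in the sources used here. Here they were converted to log2 with no pseudocount and no filter on low values. Of 45101 probe sets 64 controls were left out, and 34945 named 1 gene in the platform annotation, 932 several and 9160 none. The brightest probe set by mean stood for each of 18193 genes. Groups came from the sample titles. Model differences were fitted with lmFit and eBayes of limma 3.58.1 in R 4.3.3, with all 3 groups in 1 fit (5 residual degrees of freedom), two-sided and adjusted by Benjamini-Hochberg over all genes. A call needed an adjusted p under 0.05 and a log2 difference over 0.5 in size. The number of arrays limits the precision. The procedure was tested on simulated data with known differences.

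The genes and lists were chosen with earlier results of these data known, so a count over them is a description. From each matrix list up to 4 called genes per comparison with the largest difference were named, with values given for most of their comparisons. Kera, Epyc and Prelp are named as neighbours of the genes described, and Ecm2 and Omd as neighbours of Aspn and Ogn. These were chosen after their values were seen. Promoter windows and gene order came from RefSeq (GRCm38.p6). Alternatives were quantile and median scaling, a filter on low values, other probe-set rules, a replicate block, fits of 2 groups, trended and robust eBayes, array weights, the beta-actin covariate, other thresholds and leaving out each array. Figures were drawn with matplotlib 3.10.9 in Python 3.11.15.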

Additional observations from a re-analysis of the deposited data

How the results depend on the processing

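For the 9 genes in 3 comparisons, 22 alternatives gave 594 values, of which 551 kept the direction and the side of the threshold, 29 lost a call, 11 gained one and 3 changed direction. The calls of Lum and Dcn in Dex against either other model and those of Fn1 and Tnc in TNF against either were kept under every alternative. No alternative read the dimmer probe set of Dcn or Tnc alone, and Lum had 1 probe set. The dimmer Dcn probe set gave 0.04 in Dex minus CI and 0.15 in TNF minus Dex. That of Tnc gave 0.06 in TNF minus CI and -0.01 in TNF minus Dex. Direction changed for Thbs1 in TNF against CI, to 0.059 with the beta-actin covariate and 0.068 without TNF replicate 2 (-0.58 to 0.068 with any 1 array left out), and for Fmod in TNF against Dex, to -0.012 with the median over probe sets. With a minimum difference of 1, 2 of the 9 genes were called in TNF against CI and 3 in Dex against CI. Leaving out 1 array gave 4 to 5 calls in TNF against CI, 5 to 6 in Dex against CI and 4 to 6 in TNF against Dex. Without a CI array 1 remained, assumed to vary like the other groups.

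Of the 159 related matrix genes, 40, 35 and 29 were called in the 3 comparisons in the order above, 74, 69 and 69 with no minimum difference, and 7, 10 and 9 with a minimum of 1. The counts over all 18193 genes were 1496, 1637 and 1328. They were 4181, 3925 and 3800 with no minimum difference, and 258, 423 and 342 with a minimum of 1. With the median over probe sets 1296 of all genes and 26 of the 159 were called in TNF against CI. Leaving out 1 array gave 34 to 43, 35 to 36 and 27 to 35. For the 77 comparisons of named list genes, alternatives other than the threshold kept 1425 calls, lost 37 and turned 1 direction, that of Itgav in TNF against Dex (-0.13 with the median over probe sets). Beside the cases given above, the median over probe sets lost Agrn (0.42), Thbs2 (0.42) and Ext1 (-0.25) in TNF against CI and Fbln1 (0.22) and Fbln5 (0.39) in TNF against Dex, and the beta-actin covariate lost Ugdh in TNF against CI (0.44) and Ccn4 in TNF against Dex (0.32). Chsy1 in TNF against Dex also fell short of a call in an alternative, at 0.46. Trended and robust eBayes lost both Thbs1 calls (adjusted p = 0.102 and 0.132). Postn in TNF against CI was lost with quantile scaling (-0.45), array weights (-0.48) and the beta-actin covariate (-0.47).

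Deviations of same-numbered arrays from their group means correlated at -0.09 to 0.33 over 7 pairs, and those of other arrays at -0.38 to 0.28 over 14, so the numbers were not shown to pair the arrays. With the replicate number as a block, 4, 6 and 5 of the 9 genes were called, beside 1534, 1730 and 1339 of all genes. Among the 9 genes Postn in TNF against CI (-0.49, limma adjusted p = 0.0125) was the 1 call lost.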
